A study of Mus musculus with 9 samples.

Results

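Mouse oocytes vitrified on a cryotop were compared with fresh oocytes across all genes by poly(A) RNA sequencing. The comparison takes 6 of the 9 libraries of the series, 3 of the group labelled cryopreservation-1 and 3 of the group labelled fresh, chosen by their treatment labels alone. The remaining 3 libraries, cryopreservation-2, hold oocytes frozen by another protocol, with 17.5% EG and trehalose at 1 M. They entered the filter on low counts, the scaling of the libraries to each other and the estimate of the spread between libraries. Their own values are given for a few genes at or near 0 in fresh. For cryopreservation-1 the oocytes went onto a cryotop in a solution of 15% EG, 15% DMSO and sucrose at 0.5 M. The fresh oocytes carry no treatment other than that label. Carrier, permeating solutes, sugar, cooling and warming therefore differ together between the groups and cannot be told apart. Nothing used here gives strain, age, maturation stage, the number of oocytes pooled or the time between warming and lysis. Nor do the labels tie replicates to separate animals or pools, so a p-value covers the spread among these samples alone, and that spread may be technical.

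Vitrification cools cells fast enough that the water in them turns to glass rather than ice, and a cryotop is a thin strip that holds the cells in a very small volume. EG (ethylene glycol) and DMSO enter the cell and lower the chance of ice, whereas sucrose stays outside and draws water out, so that the oocyte shrinks on loading and swells on warming. A fully grown oocyte transcribes little and lives on messenger RNA stored during growth, so its transcript levels reflect storage, tail length and decay as well as synthesis. Spindle microtubules, the actin cortex, mitochondria, calcium stores and the cortical granules that harden the zona are the parts usually examined for damage after freezing.

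Total counts lay between 64276885 and 80877288 per library over the 6 libraries. Gdf9 and Bmp15, growth factors made by the oocyte, stood at 7942 to 13680 and 669.2 to 1062 CPM (counts scaled to library size, with TMM factors), and all 12 oocyte markers were detected in both groups. Of 9 cumulus and granulosa cell markers in the table, Serpine2 and Cyp19a1 carried nearly all counts, while Ptx3 had 0 counts in all 6 libraries and Fst at most 8. Their summed share was 0.0942% to 0.124% of counts in fresh and 0.101% to 0.125% in cryopreservation-1. Immune and blood cell markers summed to at most 0.00146%, with Ptprc, Lyz2 and Hba-a1 at 0 throughout. Between 6471 and 9108 genes of the 26358 in the table had no count in a library (exact permutation p = 0.3 between groups, unpaired and 2-sided, n = 3 each, where 0.1 is the smallest p the design allows). In each of the 3 same-numbered pairs the vitrified library had fewer such genes, 6484, 6471 and 8421 against 7744, 7217 and 9108 in fresh, and more genes with at least 10 counts.

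No gene differed between cryotop-vitrified and fresh oocytes after adjustment over the 17545 genes tested. The edgeR quasi-likelihood test called 0 genes (0%) at an adjusted p under 0.05, and the smallest adjusted p was 0.337, for Trmu. At an unadjusted p under 0.05 there were 828 genes (4.72%), of which 555 (3.16% of genes tested) were higher and 273 (1.56%) lower in cryopreservation-1. Limma on log2(FPKM + 1) also called 0 genes, of 10896 at a mean of at least 0.5 FPKM. DESeq2 called 43 (0.245%), 27 higher and 16 lower, and gave 111 genes no adjusted p. For every tested gene named below other than Trmu, edgeR's adjusted p was 1, so the differences are given as measured values that did not pass the test. In bulk RNA of this kind, fewer cells that hold a transcript and less of it per cell cannot be told apart.

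The groups were set side by side by a simpler count as well. In 1770 genes (10.1%) all 3 cryopreservation-1 libraries lay on the same side of all 3 fresh libraries, 1117 (6.37%) above and 653 (3.72%) below. The share of higher genes among them was 63.1%, against 76.9% on the authors' FPKM values, where the smaller set of 10896 genes was tested. It was 57.8% with RLE scaling in place of TMM, 57.3% with the 6 libraries fitted alone and 53.7% at a mean of at least 5 CPM. Among genes at an unadjusted p under 0.05 the share was 67.0%, against 79.9% on FPKM, 56.2% with the 6 libraries fitted alone, 54.3% with those 6 and the replicate number as a block, and 50.9% among genes at a mean of at least 5 CPM. At that mean level 217 genes were higher and 209 lower by this p, and 483 higher and 416 lower by the count of groups that do not overlap. The median log2 fold change of all genes tested was 0.02, with quartiles at -0.28 and 0.38.

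For most well-expressed genes the data bound the difference. The intervals used are per gene and are not adjusted for the number of genes. Over all genes tested, the 95% interval of the fold change lay inside a 2-fold change in either direction for 5130 (29.2%). Among the 1820 genes at a mean of at least 100 CPM it did so for 1553 (85.3%), and the median distance from estimate to interval end was 0.53 (log2). Of the 4540 genes between 10 and 100 CPM, 2902 (63.9%) were bounded in this way. Between 1 and 10 CPM it was 673 of 5334 (12.6%), and under 1 CPM 2 of 5851 (0.0342%), where the median distance was 3.25. Differences among genes under 1 CPM were thus mostly not detectable at this number of libraries.

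**Figure D1:**
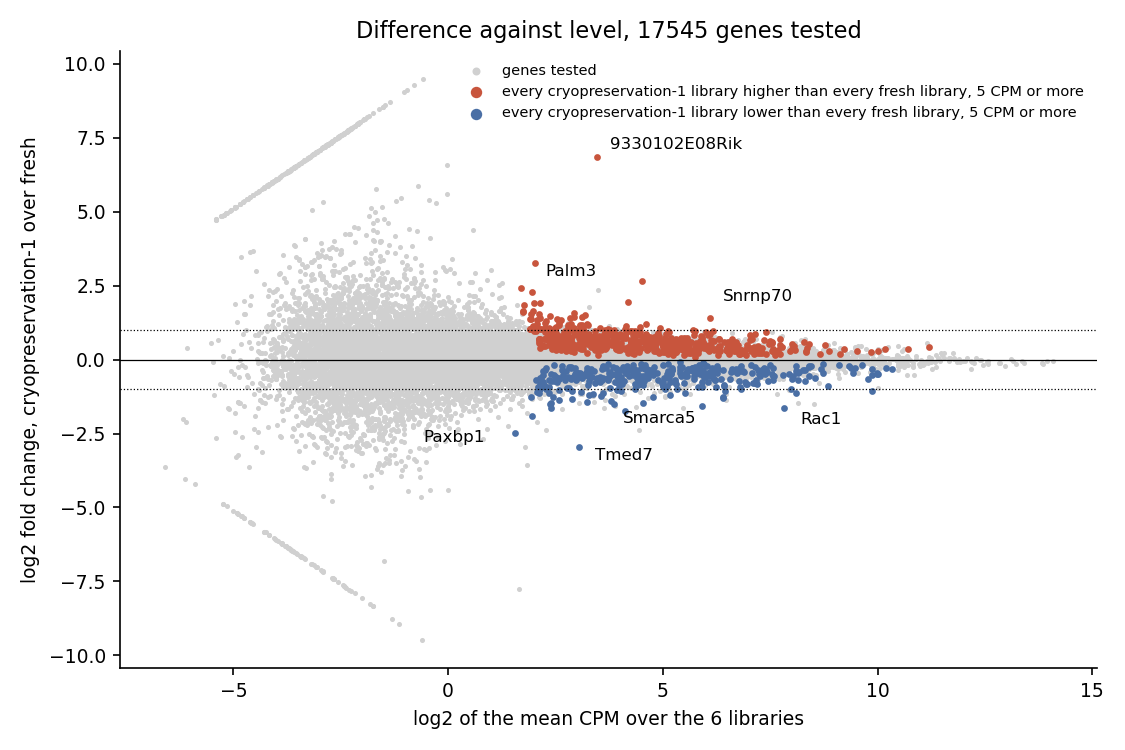
Log2 fold change of cryopreservation-1 over fresh (vertical axis) against log2 mean CPM over the 6 libraries (horizontal axis) for the 17545 genes tested. Dotted lines mark a 2-fold change. Coloured points are genes at 5 CPM or more in the higher group whose groups do not overlap, 569 higher and 359 lower. The spread narrows as the level grows, genes at 0 in all libraries of 1 group form the diagonal lines, and among the coloured points 9330102E08Rik has the highest value, 6.84.

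The long noncoding RNA 9330102E08Rik (ENSMUSG00000107879, minus strand, chr6:128169704-128183803, GRCm38) had the largest fold difference among genes at 5 CPM or more in the higher group whose groups do not overlap. Of the groups compared, only cryopreservation-1 reached that level. The gene is named here after its values were seen, because the rule for named genes passes over provisional symbols. Fresh libraries held 15, 13 and 14 counts of it and cryopreservation-1 libraries 1435, 1483 and 1758. In CPM these are 0.186, 0.187 and 0.198 against 18.6, 19.1 and 28.4, a 114.7-fold difference as fitted. Every cryopreservation-1 library was far above every fresh library, and within each group the 3 libraries stood close together. The cryopreservation-2 libraries stood at 0.0383, 10.7 and 0.217 CPM, so replicate 2 of that group was high and the other two were near the fresh level. With all 9 libraries in the fit, edgeR gave a log2 fold change of 6.84 (SE 1.35) and an adjusted p of 1. Fitted on the 6 libraries alone it was the only gene called, at an edgeR adjusted p of 0.000572, and with the replicate number as a block in those 6 its edgeR adjusted p was 0.00600. It was also called by edgeR without cryopreservation-2 replicate 2 (adjusted p = 0.00909). DESeq2 gave it no adjusted p and so could not call it.

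GENCODE gives 9330102E08Rik as a long intergenic noncoding RNA of 3 exons of 1067, 167 and 2609 bases, and no other gene of the deposited table overlaps it. The table gives a second transcript of it a pseudogene type, so reads may be shared with a related copy, which was not tested. The nearest gene in the table, Gm10010, has its 3′ end 4015 bases away. It had 208, 193 and 134 counts in fresh and 201, 236 and 78 in cryopreservation-1. Tspan9, a tetraspanin 26141 bases away on the other side, had 11015, 7212 and 9230 counts against 11556, 8310 and 8956. The groups overlapped at both neighbours, so the separation was not shared by the genes beside it. The 250 bases before its start are printed because they lie upstream of the only gene called under any edgeR setting; they come from RefSeq (GRCm38.p6, chr6:128183804-128184053, minus strand, 5′ to 3′).
9330102E08Rik: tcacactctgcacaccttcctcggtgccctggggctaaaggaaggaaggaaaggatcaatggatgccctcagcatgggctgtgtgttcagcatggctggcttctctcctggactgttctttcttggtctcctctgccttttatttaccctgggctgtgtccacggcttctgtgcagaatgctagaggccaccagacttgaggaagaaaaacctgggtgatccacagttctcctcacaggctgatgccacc
This stretch held no match to TATAAA, or to the stress motifs TGATGNAA and TGACGTNA, on either strand, which says only that these letters are not in this window. TATAAA was found in 12.4% of 32851 promoter stretches of the same length.

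Genes without any count in 1 group formed a small class that was mostly detected after vitrification. There were 45 genes (0.256% of genes tested) with 0 counts in all 3 fresh libraries and at least 10 in each cryopreservation-1 library, 16 of them with provisional symbols, and 3 genes (0.0171%) the other way round. The part that the lower number of genes at 0 in each vitrified library has in this difference was not tested. Trmu (chr15:85879312-85897392, plus strand), the enzyme that thiolates mitochondrial transfer RNA, had 0 counts in every fresh library and 61, 66 and 114 in cryopreservation-1. With 3 counts over the fresh group taken as the floor, Trmu was at least 81.9-fold higher in pooled counts. This value and those below on such a floor cover counting error only and leave out the spread between libraries. Trmu also had 85, 188 and 170 counts in cryopreservation-2, so it was detected in all 6 frozen libraries and in no fresh library.

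Pdk2, a kinase that inhibits pyruvate dehydrogenase, had 55, 64 and 96 counts in cryopreservation-1 and none in fresh, which is at least 73.1-fold higher. The sorting receptor gene Sorcs1 had 87, 95 and 104 counts, at least 97.2-fold higher than in fresh. Gpr20, an orphan receptor, had 58, 60 and 51 counts, and Sv2a, a synaptic vesicle protein, 34, 102 and 21. These are at least 57.5-fold and 53.4-fold higher. Smim41 was the case in the other direction with a settled symbol, with 17, 40 and 25 counts in fresh and 0 in cryopreservation-1, at least 26.8-fold lower. All of these genes lay under 2 CPM in each of the 6 libraries, and 114 reads was the most of any of them in a library of at least 64276885.

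Krt8, a keratin of simple epithelia that is also expressed in early embryos, was close to this class (chr15:101996698-102004482, minus strand). Fresh libraries had 0, 4 and 0 counts and cryopreservation-1 libraries 205, 96 and 122, with a log2 fold change of 6.58 (95% interval 4.06 to 9.37). The groups did not overlap. Without fresh replicate 2, the only fresh library with counts, the fitted value was 10.03, and it was 0.88 on log2(FPKM + 1), a scale that understates the change of low genes. Acta2, a smooth muscle actin, had 0 counts in all fresh libraries and 24, 44 and 4 in cryopreservation-1. The markers listed as stromal and endothelial, 7 in the table and 6 tested, include Krt8 although it is epithelial. Krt8 and Acta2 were the 2 tested members whose groups did not overlap, against 10.1% of all genes. Col1a1 had at most 4 counts in any library. The summed share of the list was 0.00982% to 0.0166% in fresh and 0.00991% to 0.0175% in cryopreservation-1, carried by Pecam1 and Myh11. The part of other cells in the values of Krt8 and Acta2 was not tested.

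Atf3, a transcription factor induced by many stresses and a target of the integrated stress response, had the smallest unadjusted p of the 32 stress-response genes tested. It had 0 counts in the 3 fresh libraries and 37, 61 and 12 in cryopreservation-1. On the same floor Atf3 lay at least 37.4-fold higher in pooled counts, with the spread between libraries left out. In CPM the vitrified libraries stood at 0.479, 0.787 and 0.194, a low level. Ddit3, the other stress-induced factor of this arm, stood at 1.42, 1.37 and 1.74 CPM in fresh and 1.28, 1.64 and 1.26 in cryopreservation-1, with overlapping groups. The 250 bases before the start of Atf3 in RefSeq are shown because the motifs in them are those of this response. GENCODE's gene spans chr1:191170296-191218039, so this start lies inside it, and the counts do not say which start was used. The stretch follows (GRCm38.p6, chr1:191183334-191183583, minus strand, 5′ to 3′, with matches to TGATGNAA, the ATF4 composite motif, and TGACGTNA, the cyclic AMP response motif, in capitals).
Atf3: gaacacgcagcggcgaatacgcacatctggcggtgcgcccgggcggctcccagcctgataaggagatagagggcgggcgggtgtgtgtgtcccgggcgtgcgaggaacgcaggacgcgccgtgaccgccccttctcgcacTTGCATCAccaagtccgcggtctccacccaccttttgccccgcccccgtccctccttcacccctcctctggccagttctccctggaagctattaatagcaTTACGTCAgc
Both matches lie on the opposite strand, 110 to 103 and 10 to 3 bases before the start. TGATGNAA was found, on either strand, in 3.45% of the 32851 promoter stretches and TGACGTNA in 2.52%. Among 30 promoters found for the stress-response list, TGATGNAA was in those of Asns, Atf3, Chac1 and Herpud1 (13.3%) and TGACGTNA in those of Atf3, Hspa5 and Ppp1r15a (10%). A match is a description of the sequence and not a measurement of binding.

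**Figure D2:**
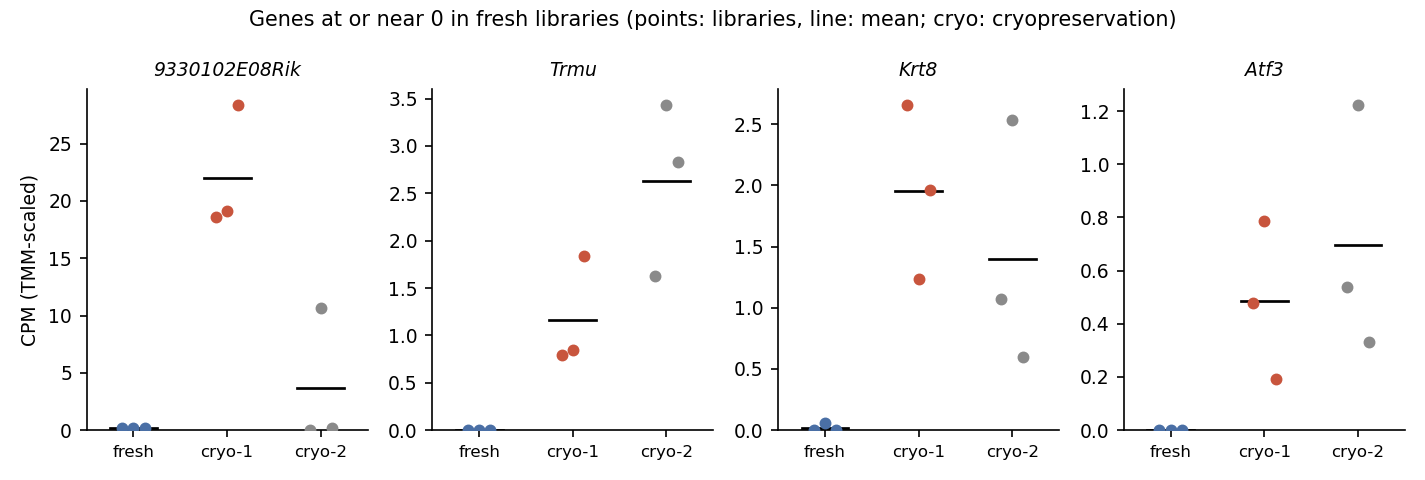
TMM-scaled CPM of 9330102E08Rik, Trmu, Krt8 and Atf3 in each library (points, replicates 1 to 3 from left) with the group mean (line) in fresh, cryopreservation-1 and cryopreservation-2. Fresh libraries sit at or near 0 in all 4 panels, and 9330102E08Rik is high in 1 of the 3 cryopreservation-2 libraries.

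Among genes at 5 CPM or more in the higher group (8325 genes), 359 (4.31%) were lower in every cryopreservation-1 library than in every fresh library. Those with the smallest unadjusted p are given first. Smarca5 (chr8:80698507-80739497, minus strand), the ATPase subunit of ISWI remodellers that slide nucleosomes, stood at 175, 98.2 and 87.7 CPM in fresh and 43.3, 57.9 and 45.4 in cryopreservation-1. Its log2 fold change was -1.30 (SE 0.28, 95% interval -1.92 to -0.68). Fresh replicate 1 stood well above the other 2 fresh libraries. Rac1 (chr5:143503634-143528036, minus strand), a small GTPase of the actin cortex, stood at 298 and 149 CPM in fresh replicates 2 and 3 and at 574.5 in replicate 1, against 109, 121 and 102. Its log2 fold change was -1.62 (SE 0.38), with the fresh libraries spread widely and the vitrified ones close together, and it was -1.01 without fresh replicate 1.

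Rif1, which sets replication timing and protects broken DNA ends, stood at 417, 299 and 286 CPM in fresh and 152, 154 and 202 in cryopreservation-1 (log2 fold change -0.98, SE 0.25). Rnf139 and Trim59, both of ubiquitin ligase families, stood at 118, 99.5 and 77.6 against 51.2, 50.8 and 54.4 CPM, and at 159, 110 and 89.4 against 40.2, 63.8 and 46.6 CPM. In Rif1, Rnf139 and Trim59 alike fresh replicate 1 was highest, while the separation of the groups follows from how these genes were chosen. Clptm1l, a membrane protein, stood at 128, 129 and 96.4 against 54.0, 73.8 and 40.7 CPM. Dmxl1, a partner of the vacuolar proton pump, stood at 30.4, 31.5 and 28.7 against 14.4, 20.2 and 14.9 CPM. Fresh values of Dmxl1 lay close together, and the log2 fold changes of Clptm1l and Dmxl1 were -1.07 (SE 0.26) and -0.87 (SE 0.21).

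Apart from Rac1, the genes with the largest fold differences downward stood at lower levels. Tmed7, a cargo receptor between endoplasmic reticulum and Golgi, stood at 30.1, 8.34 and 5.39 CPM in fresh and 2.33, 1.44 and 1.86 in cryopreservation-1. Its log2 fold change was -2.96 (SE 0.55), and its reads cannot be told apart from those of Ticam2, which overlaps it. Paxbp1 stood at 9.38, 2.34 and 3.29 against 0.635, 1.11 and 0.919 CPM (log2 fold change -2.49, SE 0.51). For both, fresh replicate 1 alone was several times above the other fresh libraries, and without it the log2 fold changes were -1.87 for Tmed7 and -1.66 for Paxbp1. Map3k7, the kinase TAK1, stood at 11.1, 4.65 and 8.35 against 2.66, 3.22 and 1.92 CPM. Gclc, the catalytic subunit for the first step of glutathione synthesis, stood at 32.5, 31.5 and 16.1 against 5.21, 14.2 and 4.35 CPM, a log2 fold change of -1.75 (SE 0.53) that was -2.48 without cryopreservation-1 replicate 2. The log2 fold change of Mpp6 was -1.25 (SE 0.32). That of Zim3, listed at 0 in 1 vitrified library, was -1.89 (SE 1.40), or -2.82 without cryopreservation-1 replicate 1 and -1.31 without its replicate 3, and each of the pair overlaps a gene on the other strand.

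In the other direction, 569 of the 8325 genes (6.83%) were higher in every cryopreservation-1 library. Snrnp70 (chr7:45376453-45395742, minus strand), a core protein of the U1 small nuclear ribonucleoprotein, stood at 33.4, 25.9 and 53.7 CPM in fresh and 128, 64.3 and 108 in cryopreservation-1. Its log2 fold change was 1.41 (SE 0.35, 95% interval 0.65 to 2.18), and the lowest vitrified library was only slightly above the highest fresh one. Arpc3, a subunit of the Arp2/3 actin nucleator, stood at 36.6, 36.2 and 42.3 against 64.7, 76.0 and 63.3 CPM (log2 fold change 0.83, SE 0.20). Ctnnbl1, a splicing-associated protein, stood at 42.4, 43.0 and 57.8 against 82.7, 83.0 and 87.7 CPM (log2 fold change 0.82, SE 0.20). Arpc3 and Ctnnbl1 had a clear gap between groups, more than the range within either group.

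Alox12, a lipoxygenase of arachidonic acid, stood at 4.77, 5.71 and 5.67 CPM in fresh and 10.8, 13.8 and 11.6 in cryopreservation-1, a log2 fold change of 1.16 (SE 0.25). Polr2e, a subunit shared by the nuclear RNA polymerases, stood at 5.98, 7.11 and 3.95 against 10.1, 15.0 and 14.4 CPM. Klhl25, an adaptor of cullin ubiquitin ligases, stood at 10.9, 12.3 and 15.0 against 28.2, 21.3 and 25.4 CPM. For Alox12 and Klhl25 the gap between the groups was wider than the range within fresh, and for Polr2e it was slightly narrower. Palm3, a membrane-linked paralemmin that overlaps Il27ra on the other strand, stood at 0.993, 2.01 and 1.00 against 9.56, 4.91 and 4.92 CPM (log2 fold change 2.27, SE 0.48). Aurkaip1, a protein of the small mitochondrial ribosomal subunit, stood at 1.74, 3.44 and 3.03 against 5.78, 9.995 and 7.05 CPM. Samm50, which inserts proteins into the outer mitochondrial membrane, stood at 9.03, 8.03 and 9.13 against 16.7, 20.04 and 13.5 CPM.

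Elmsan1, a scaffold of a histone deacetylase complex, stood at 2.97, 1.96 and 2.38 CPM in fresh and 5.74, 6.41 and 7.16 in cryopreservation-1. The kinase Map3k11 stood at 1.28, 1.496 and 2.31 against 5.34, 7.89 and 5.76 CPM. Pate14 stood at 3.57, 4.79 and 3.36 against 7.11, 13.3 and 10.7 CPM. Dhcr7, the enzyme of the last step of cholesterol synthesis, stood at 2.49, 1.76 and 1.35 against 8.59, 9.82 and 2.66 CPM, and cryopreservation-1 replicate 3 lay close to the fresh libraries. Other genes chosen for the size of their fold had wide errors, namely Rsc1a1 at 2.41 (SE 0.89), Plod2 at 1.86 (SE 0.90) and Septin2 at 2.67 (SE 2.17) on the log2 fold change scale. Each leaned on 1 library, with Rsc1a1 at 4.83 and Septin2 at 14.38 without fresh replicate 3 and Plod2 at 1.26 without cryopreservation-1 replicate 1. Septin2 had 0 CPM in fresh replicates 1 and 2, and its locus is listed in the annotation under Sept2 as well, so its reads may be divided between entries. Rsc1a1 lies within Ddi2. Reads of Rac1, Rnf139, Map3k11 and Lrrc8d cannot be told apart from those of genes on the other strand, since no source used here gives the strand setting of the counting. The same limit holds for other named genes that overlap an annotated gene on the other strand, among them Atf3, Krt8, Pdk2, Sorcs1, Paxbp1, Map3k7, Snrnp70, Supt5, Idh3b, Cox5a, Prdx5, Txnip, Psmc3 and Trim28.

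**Figure D3:**
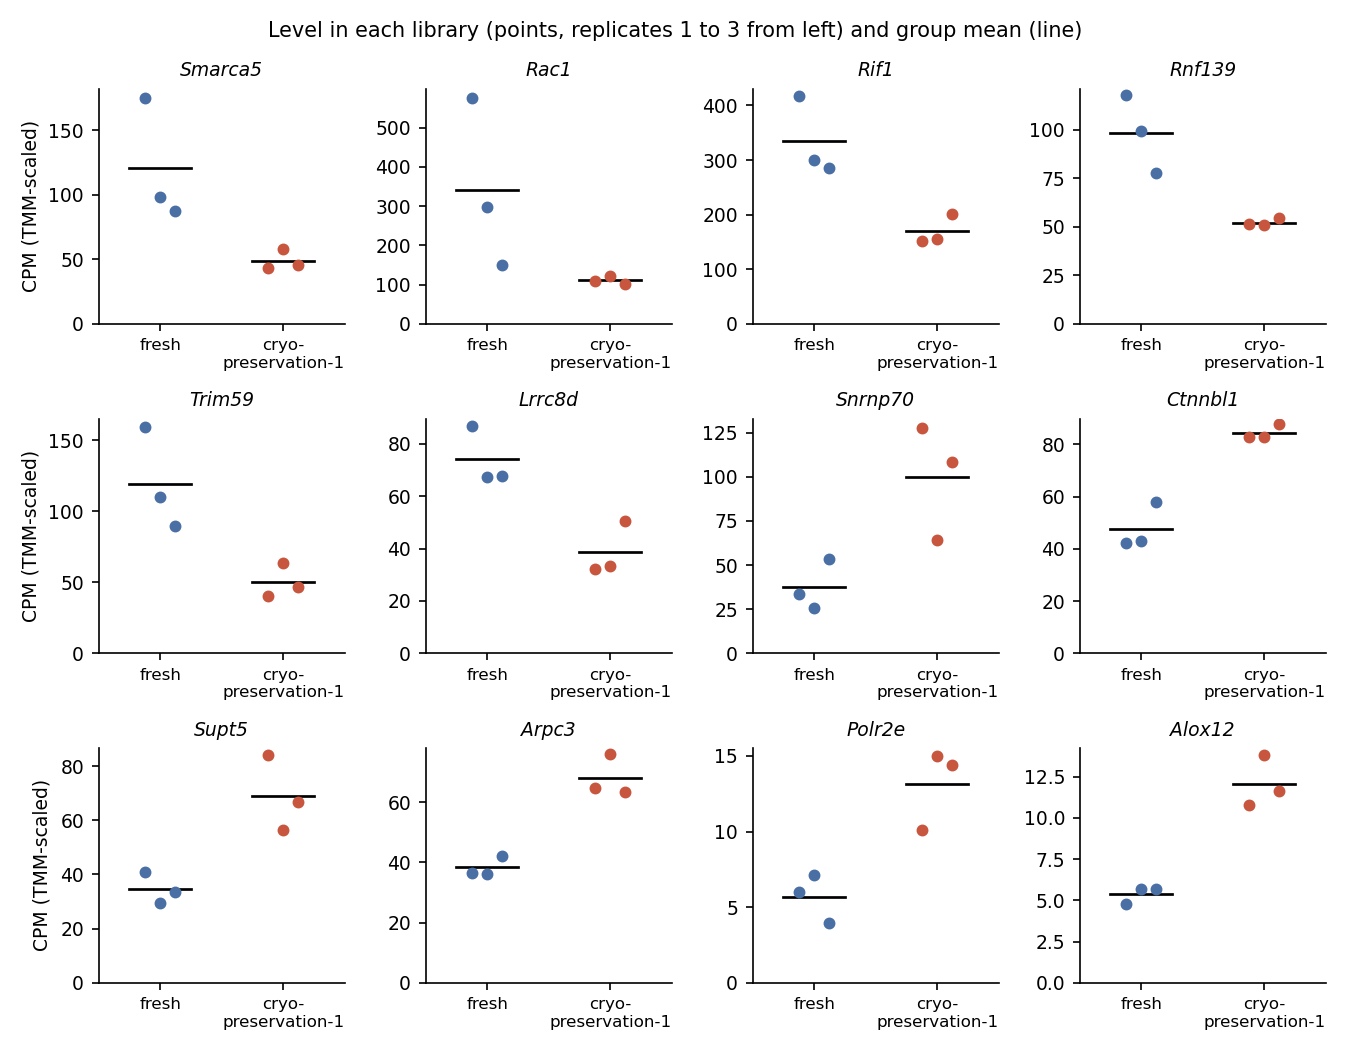
TMM-scaled CPM (vertical axis, from 0) of 12 named genes in each of the 6 libraries (points, replicates 1 to 3 from left) with the group mean (line). All 12 were chosen among genes whose groups do not overlap, so the separation in the panels follows from that choice. Fresh replicate 1 is the highest fresh library for Smarca5, Rac1, Rif1, Rnf139, Trim59 and Lrrc8d.

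Transcripts of the mitochondrial genome were lower on average in vitrified oocytes, with none called. The log2 fold change was below 0 for all 13 of its protein-coding genes. Their median was -0.52 against 0.02 over all genes tested, and in 9 of 13 every vitrified library was under every fresh one, against 3.72% of all genes. Only mt-Nd4l among them reached an unadjusted p under 0.05. These transcripts encode the mitochondrial subunits of the respiratory chain and of ATP synthase and are stored in great number in the oocyte. Their median stayed between -0.55 and -0.45 under every alternative tried. These genes derive from shared polycistronic precursors and pass the same poly(A) selection, so they are not independent observations.

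By subunit, mt-Co1 of cytochrome oxidase stood at 1343, 1008 and 1185 CPM in fresh and 808.5, 780 and 979.9 in cryopreservation-1 (log2 fold change -0.46, SE 0.26). mt-Atp6 of ATP synthase stood at 1010, 1210 and 1351 against 753.6, 915.9 and 891.3 CPM (log2 fold change -0.48, SE 0.26). mt-Nd4l of complex I stood at 47.2, 43.0 and 46.1 against 30.2, 31.8 and 18.7 CPM (log2 fold change -0.76, SE 0.28). In these 3 genes no vitrified library reached the fresh range. mt-Cytb stood at 1581, 1873 and 2335 against 1128, 1595 and 1319 CPM, and mt-Nd1 at 451, 281 and 410 against 232, 239 and 319 CPM. In both, 1 vitrified library reached the fresh range. mt-Nd6, which is read from the opposite strand to the rest and overlaps mt-Nd5, stood at 31.0, 12.8 and 26.0 against 12.8, 13.01 and 11.8 CPM. The 13 protein-coding genes together took 0.508% to 0.664% of counts in the fresh libraries and 0.391% to 0.459% in cryopreservation-1, without overlap. All genes of the mitochondrial genome took 0.671% ± 0.0921 of counts in fresh and 0.529% ± 0.0629 in cryopreservation-1 (SD, n = 3 each, exact permutation p = 0.2, 2-sided), and fresh replicate 2 at 0.568% lay under cryopreservation-1 replicate 2 at 0.590%.

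**Figure D4:**
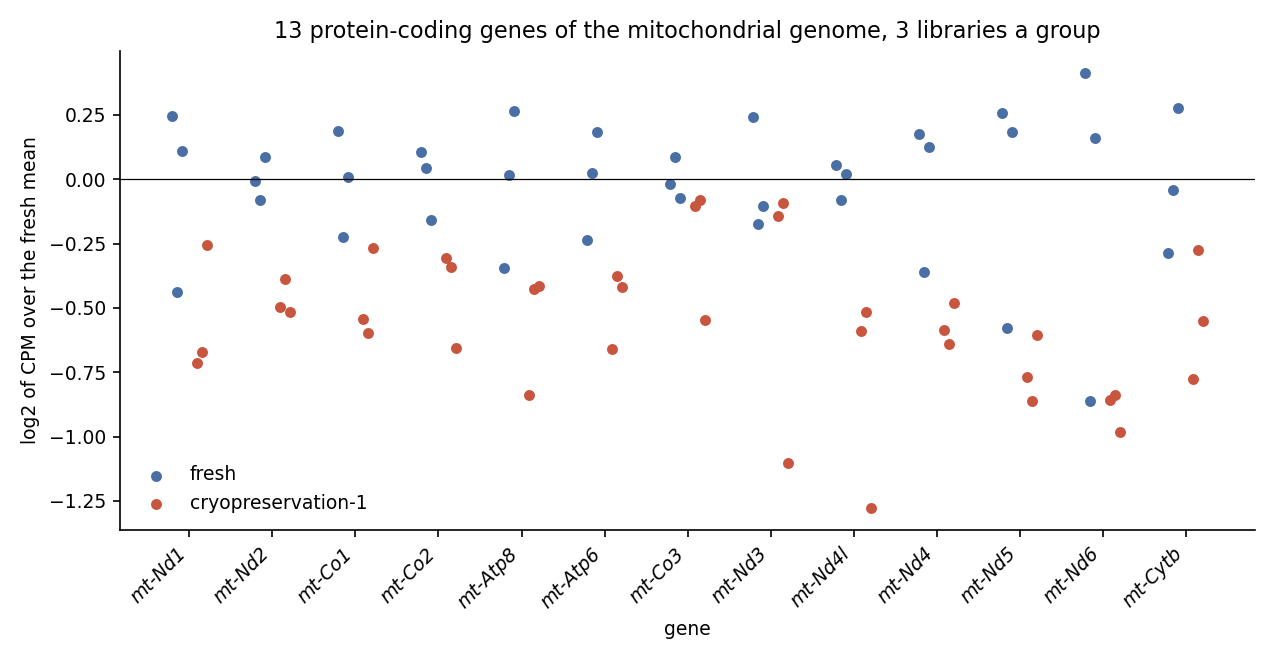
Log2 ratio of each library's CPM to the fresh mean (vertical axis) for the 13 protein-coding genes of the mitochondrial genome in genome order, 3 fresh and 3 cryopreservation-1 libraries. Every cryopreservation-1 point lies below 0, and the fresh points scatter on both sides of it, most widely for mt-Nd6.

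Nuclear genes of the respiratory chain and of the mitochondrial ribosome had positive medians. Of 75 nuclear respiratory chain genes tested, 53 had a positive log2 fold change against 52.1% of all genes, with a median of 0.18. Groups did not overlap in 8 higher and 1 lower, against 6.37% and 3.72% of all genes, and 0 were called. Cox5a, a cytochrome oxidase subunit, stood at 48.6, 64.3 and 57.6 CPM in fresh and 82.5, 98.9 and 83.6 in cryopreservation-1, a log2 fold change of 0.64 (SE 0.18). Ndufa8 of complex I lay in the other direction, at 3.995, 6.07 and 5.15 against 3.03, 3.90 and 2.55 CPM. Of 78 mitochondrial ribosomal protein genes, 59 were positive (median 0.27), with 8 higher and 1 lower without overlap and 0 called. Mrpl55 stood at 0.236, 0.316 and 0.0564 against 1.22, 2.68 and 1.16 CPM, and Mrpl58, the peptidyl-tRNA hydrolase of that ribosome, at 3.03, 4.56 and 4.78 against 2.95, 1.84 and 2.21 CPM. Both medians stayed positive under every alternative tried, from 0.11 to 0.41 and from 0.14 to 0.41. In the 27 genes of mitochondrial transcription and RNA processing the median was -0.01, with signs of both kinds under the alternatives. There Elac2, which cuts transfer RNA ends, stood at 33.1, 21.8 and 28.4 against 38.5, 40.3 and 58.6 CPM, and Tfb2m, a mitochondrial transcription factor, at 54.0, 66.5 and 69.2 against 42.7, 46.8 and 49.4 CPM.

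Proteasome, lipid and energy metabolism lists had positive medians too. Of 37 proteasome genes, 25 had a positive log2 fold change (median 0.22), 6 were higher and none lower without overlap, against 6.37% and 3.72% of all genes, and 0 were called. Psmc3, an ATPase of the proteasome base, stood at 4.89, 5.28 and 5.28 CPM in fresh and 8.36, 9.002 and 8.63 in cryopreservation-1, with little spread in either group (log2 fold change 0.75, SE 0.28). Of 33 genes of lipid droplets, fatty acids and membrane lipids, 23 were positive (median 0.25), with 8 higher and 1 lower without overlap, beside the same shares of all genes. Lipe, hormone-sensitive lipase, stood at 4.68, 3.61 and 2.69 against 8.31, 5.60 and 9.55 CPM. Agpat3, an acyltransferase of phospholipid synthesis, stood at 5.22, 5.37 and 3.34 against 2.61, 2.89 and 2.68 CPM. In glycolysis and the citric acid cycle 28 of 41 genes were positive (median 0.18), and Idh3b was at 0 counts in fresh against 8, 31 and 98. In cholesterol synthesis it was 17 of 25 (median 0.07). No gene of these lists was called.

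In the splicing and transcription lists, genes whose groups did not overlap were mostly higher in vitrified oocytes. Of 65 splicing factors and small nuclear ribonucleoprotein genes, 10 were higher without overlap against 6.37% of all genes, and 1, Srsf9, was lower. At an unadjusted p under 0.05 there were 8 higher and 1 lower, against 3.16% and 1.56% of all genes, and 0 were called. Some members of both lists were chosen with earlier results of these data known, so these counts are not independent evidence. The median was 0.09. Besides Snrnp70 and Ctnnbl1, Snrnp40 of the U5 particle stood at 29.4, 43.1 and 34.6 CPM against 57.8, 60.4 and 59.8. Prpf19 and Prpf31, both spliceosome assembly factors, stood at 1.68, 1.44 and 3.44 against 7.04, 6.81 and 5.48 CPM, and at 2.31, 1.77 and 1.76 against 7.88, 3.75 and 5.34 CPM. These 3 genes are named after their values were seen. Of 51 genes of transcription elongation and Mediator, 8 were higher and 2 lower without overlap, against 6.37% and 3.72% of all genes, and 0 were called. Supt5, the pausing and elongation factor SPT5, stood at 41.0, 29.6 and 33.7 against 83.9, 56.5 and 66.8 CPM (log2 fold change 0.99, SE 0.27). Med14, the backbone of Mediator, stood at 48.0, 32.9 and 39.6 against 25.8, 29.3 and 31.5 CPM.

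Lists of water, volume and solute transport genes had medians below 0, and each list had 1 member higher and 2 lower without overlap, against 6.37% and 3.72% of all genes. Of 23 genes of water channels and cell volume control, 18 had a negative log2 fold change (median -0.31, from -0.42 to -0.12 under the alternatives), and 0 were called. Lrrc8d, a subunit of the anion channel that opens when cells swell, stood at 86.9, 67.4 and 67.8 CPM in fresh and 32.2, 33.4 and 50.7 in cryopreservation-1 (log2 fold change -0.93, SE 0.25). Aqp2, a water channel, lay in the other direction at a very low level, with 0, 7 and 0 counts in fresh and 24, 13 and 13 in cryopreservation-1, and no overlap. Aqp9, a channel for water and glycerol, stood at 66.1, 61.6 and 85.3 against 59.2, 58.5 and 73.4 CPM with overlapping groups. Aqp3, the aquaglyceroporin often discussed in oocyte freezing, had 16 counts in 1 library of each group and 0 in the others, too few to test. Of 25 solute carriers of amino acids and ions, 19 were negative (median -0.23), and 0 were called. Slc30a1, a zinc exporter, stood at 9.46, 3.80 and 4.56 against 3.41, 2.68 and 2.02 CPM. Atp1b1, a subunit of the sodium pump, was higher without overlap at 6.79, 7.03 and 3.84 against 7.04, 7.38 and 8.56 CPM, and its lowest vitrified library barely exceeded the highest fresh one. Slc6a9, the glycine transporter that oocytes use to control volume, stood at 32.0, 19.5 and 20.4 against 29.9, 33.4 and 22.4 CPM.

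Cytoskeletal lists had medians near 0. Of 52 actin assembly genes, 4 were higher and 2 lower without overlap, against 6.37% and 3.72% of all genes (median -0.02). Fmn2, the formin that moves the spindle to the cortex, stood at 136, 99.8 and 94.4 CPM in fresh and 88.3, 71.9 and 86.3 in cryopreservation-1. Cdc42, a small GTPase of cell polarity, overlapped at 61.2, 100 and 76.0 against 65.8, 77.4 and 63.3 CPM. Pak1, a kinase that Rac1 activates, stood at 36.2, 30.3 and 33.0 against 37.2, 43.5 and 52.8 CPM. Among 41 tubulin and spindle assembly genes Ckap5, a microtubule polymerase, stood at 180.5, 147 and 141 against 110, 99.7 and 129 CPM, and Tubb6 at 35.6, 35.7 and 40.2 against 50.6, 79.6 and 44.1 CPM. Among 41 kinetochore and checkpoint genes Birc5, of the chromosomal passenger complex, stood at 91.2, 113 and 99.7 against 125, 211 and 140 CPM, and Cenph at 154, 206 and 143 against 136, 132 and 124 CPM. None of these genes was called, and 27, 25 and 29 members of the actin, spindle and kinetochore lists had 95% intervals inside a 2-fold change.

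Lists of stress genes had medians near 0. Of 19 heat shock proteins and co-chaperones tested, 10 were positive (median 0.03, from -0.04 to 0.26 under the alternatives), and 11 were bounded inside a 2-fold change. Without overlap, 3 were higher and 1 lower (21.1% together), against 6.37% and 3.72% of all genes (10.1% together), and 0 were called. Hspa8, the constitutive chaperone, stood at 24.8, 24.6 and 32.2 CPM in fresh and 36.7, 40.6 and 28.4 in cryopreservation-1. The heat-inducible Hspa1a had 0, 0 and 74 counts in fresh and 17, 10 and 29 in cryopreservation-1, and its near-identical copy Hspa1b 0, 0 and 19 against 10, 2 and 11, so reads may be shared between them. Hsf1, the regulator of this response, stood at 317, 377 and 392.5 against 334, 348 and 357 CPM, with a 95% interval of -0.47 to 0.34 (log2). Stip1, a co-chaperone of Hsp90, stood at 34.7, 51.7 and 61.0 against 64.9, 68.5 and 89.2 CPM, and Hspa4 at 18.1, 17.6 and 18.9 against 17.2, 15.0 and 14.0 CPM.

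Of the 10 cold-inducible and cold-shock domain genes tested, none had groups apart (median -0.08, from -0.19 to 0.02), where 10.1% of all genes did. Cirbp stood at 20.2, 27.9 and 20.8 CPM in fresh and 28.7, 27.4 and 26.4 in cryopreservation-1. Rbm3 stood at 9.54, 12.5 and 9.14 against 8.63, 12.97 and 10.7 CPM. Both are RNA-binding proteins induced by mild cooling, and both 95% intervals lay inside a 2-fold change, at -0.23 to 0.75 and -0.55 to 0.65 (log2). In the unfolded protein and integrated stress response the median of 32 genes was -0.04. Of these, 3 were higher and 2 lower without overlap (15.6% together), against 6.37% and 3.72% of all genes, and 0 were called. Hspa5, the chaperone that senses endoplasmic reticulum load, stood at 97.6, 89.2 and 66.0 against 99.7, 83.6 and 65.2 CPM. Ppp1r15b, which directs removal of the stress mark from eIF2α, stood at 15.9, 14.9 and 14.1 against 10.4, 8.41 and 8.89 CPM (log2 fold change -0.69, SE 0.25), with no overlap.

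Of 28 antioxidant, glutathione and thioredoxin genes, 21 had a positive log2 fold change (median 0.15). Prdx5 and Txnip were higher and Cat and Gclc lower without overlap, against 6.37% and 3.72% of all genes. Prdx5, a peroxiredoxin, stood at 6.47, 5.81 and 4.89 CPM in fresh and 10.1, 11.1 and 9.97 in cryopreservation-1 (log2 fold change 0.86, SE 0.25). Txnip, the inhibitor of thioredoxin, stood at 148, 154 and 123 against 230, 179 and 247.5 CPM (log2 fold change 0.63, SE 0.23). Cat, catalase, was low throughout, at 1.37, 0.877 and 1.44 against 0.181, 0.451 and 0.323 CPM. The superoxide dismutases Sod1 and Sod2 stood at 33.6, 39.6 and 43.5 against 42.1, 56.5 and 34.6 CPM, and at 56.7, 95.1 and 58.0 against 86.1, 92.5 and 63.9 CPM, with overlap in both. No gene of the list was called.

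Of 29 apoptosis genes, 3 were higher and 3 lower without overlap, against 6.37% and 3.72% of all genes. Bax, which permeabilises mitochondria, stood at 5.86, 4.52 and 3.75 CPM in fresh and 8.28, 8.19 and 6.05 in cryopreservation-1 (log2 fold change 0.67, SE 0.30). Birc6, a large inhibitor of apoptosis, stood at 56.3, 42.0 and 54.4 against 39.2, 27.6 and 36.7 CPM. Among 44 genes of DNA damage response and repair, Mutyh stood at 22.4, 23.5 and 23.2 against 27.4, 41.3 and 28.7 CPM, and the checkpoint kinase gene Atr at 6.08, 4.72 and 5.28 against 2.51, 2.89 and 1.31 CPM (log2 fold change -1.26, SE 0.44). Trp53 overlapped at 113, 177 and 113 against 164, 141 and 131 CPM. The medians of the apoptosis and repair lists took both signs under the alternatives, and no member was called.

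Oocyte and maternal-effect genes were the best bounded. Of 46 tested, 34 had a 95% interval inside a 2-fold change, against 29.2% of all genes, which are mostly of lower level. Gdf9 stood at 9809, 13680 and 8510 CPM in fresh and 12530, 10810 and 7942 in cryopreservation-1, with an interval of -0.67 to 0.61 (log2). Ccnb1, the cyclin of maturation promoting factor, stood at 4161, 6347 and 5680 against 4746, 5353 and 5859 CPM, with an interval of -0.54 to 0.50. Nlrp5, Zar1 and Dnmt1, maternal proteins needed by the early embryo, all overlapped between groups. Mos, the kinase that holds the egg at metaphase, stood at 868, 2433 and 784 against 759, 855 and 507 CPM, and fresh replicate 2 alone was far above the rest. Padi6, of the subcortical lattices, stood at 191, 156 and 185.5 against 291.5, 235 and 220 CPM, and Trim28, a maternal guard of imprints, at 236, 117 and 127 against 106, 65.9 and 98.9 CPM, both without overlap.

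Among 22 genes of the zona, cortical granules and sperm binding, 1 had groups apart (4.55%, against 10.1% of all genes). It was Rab27a, a GTPase of secretory granules, at 23.8, 20.8 and 24.0 CPM in fresh and 36.6, 37.0 and 32.5 in cryopreservation-1 (log2 fold change 0.63, SE 0.19). Zp1, Zp2 and Zp3, the zona glycoproteins, overlapped, with Zp2 the steadiest at 79.7, 77.7 and 70.6 against 66.9, 75.7 and 70.2 CPM. Of the genes for fertilization, the sperm receptor Izumo1r stood at 77.4, 83.9 and 40.6 against 94.1, 67.7 and 39.3 CPM, Cd9 at 5.99, 15.6 and 5.01 against 7.48, 8.28 and 4.26 CPM, and Astl, the ovastacin protease that hardens the zona, at 329, 309 and 287 against 365, 352 and 243 CPM. In calcium release and egg activation 19 of 26 genes were negative (median -0.07, from -0.14 to 0.04 under the alternatives). Itpr1, the receptor that releases stored calcium, stood at 51.3, 26.8 and 51.4 against 39.2, 24.5 and 35.0 CPM. Of 41 genes of meiotic control, Prkaca, the catalytic subunit of protein kinase A, stood at 64.7, 35.6 and 30.0 against 22.7, 22.9 and 23.2 CPM (log2 fold change -0.92, SE 0.29), and Anapc5 of the anaphase-promoting complex at 59.8, 44.0 and 77.5 against 85.5, 94.2 and 112 CPM.

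Messenger RNA storage and chromatin lists had medians slightly below 0. Of 56 genes of storage, deadenylation and decay, 36 had a negative log2 fold change (median -0.12), and 0 were called. At an unadjusted p under 0.05, 5 were lower and 0 higher, against 1.56% and 3.16% of all genes. Without overlap, 2 were higher and 3 lower, against 6.37% and 3.72% of all genes. Pan3, of a deadenylase that shortens poly(A) tails, stood at 130, 109 and 111 CPM in fresh and 63.6, 78.5 and 78.7 in cryopreservation-1 (log2 fold change -0.67, SE 0.18). Lsm14b, a protein of stored messenger particles named after its values were seen, stood at 79.8, 42.2 and 29.1 against 26.2, 21.5 and 17.8 CPM. Dis3, an exosome nuclease, stood at 4.89, 4.95 and 3.202 against 7.62, 6.38 and 5.32 CPM. Of 62 DNA methylation and histone-modifying enzymes, 39 were negative (median -0.14, reaching 0.02 under 1 or more alternatives). Tet2 stood at 3.98, 3.25 and 5.11 against 2.38, 2.35 and 1.87 CPM, and Dnmt3l at 10.1, 14.1 and 11.5 against 16.7, 17.6 and 19.0 CPM. Among 43 chromatin remodellers Smarcb1, a core SWI/SNF subunit, stood at 23.6, 29.3 and 31.7 against 43.0, 53.5 and 39.7 CPM, opposite to Smarca5.

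**Figure D5:**
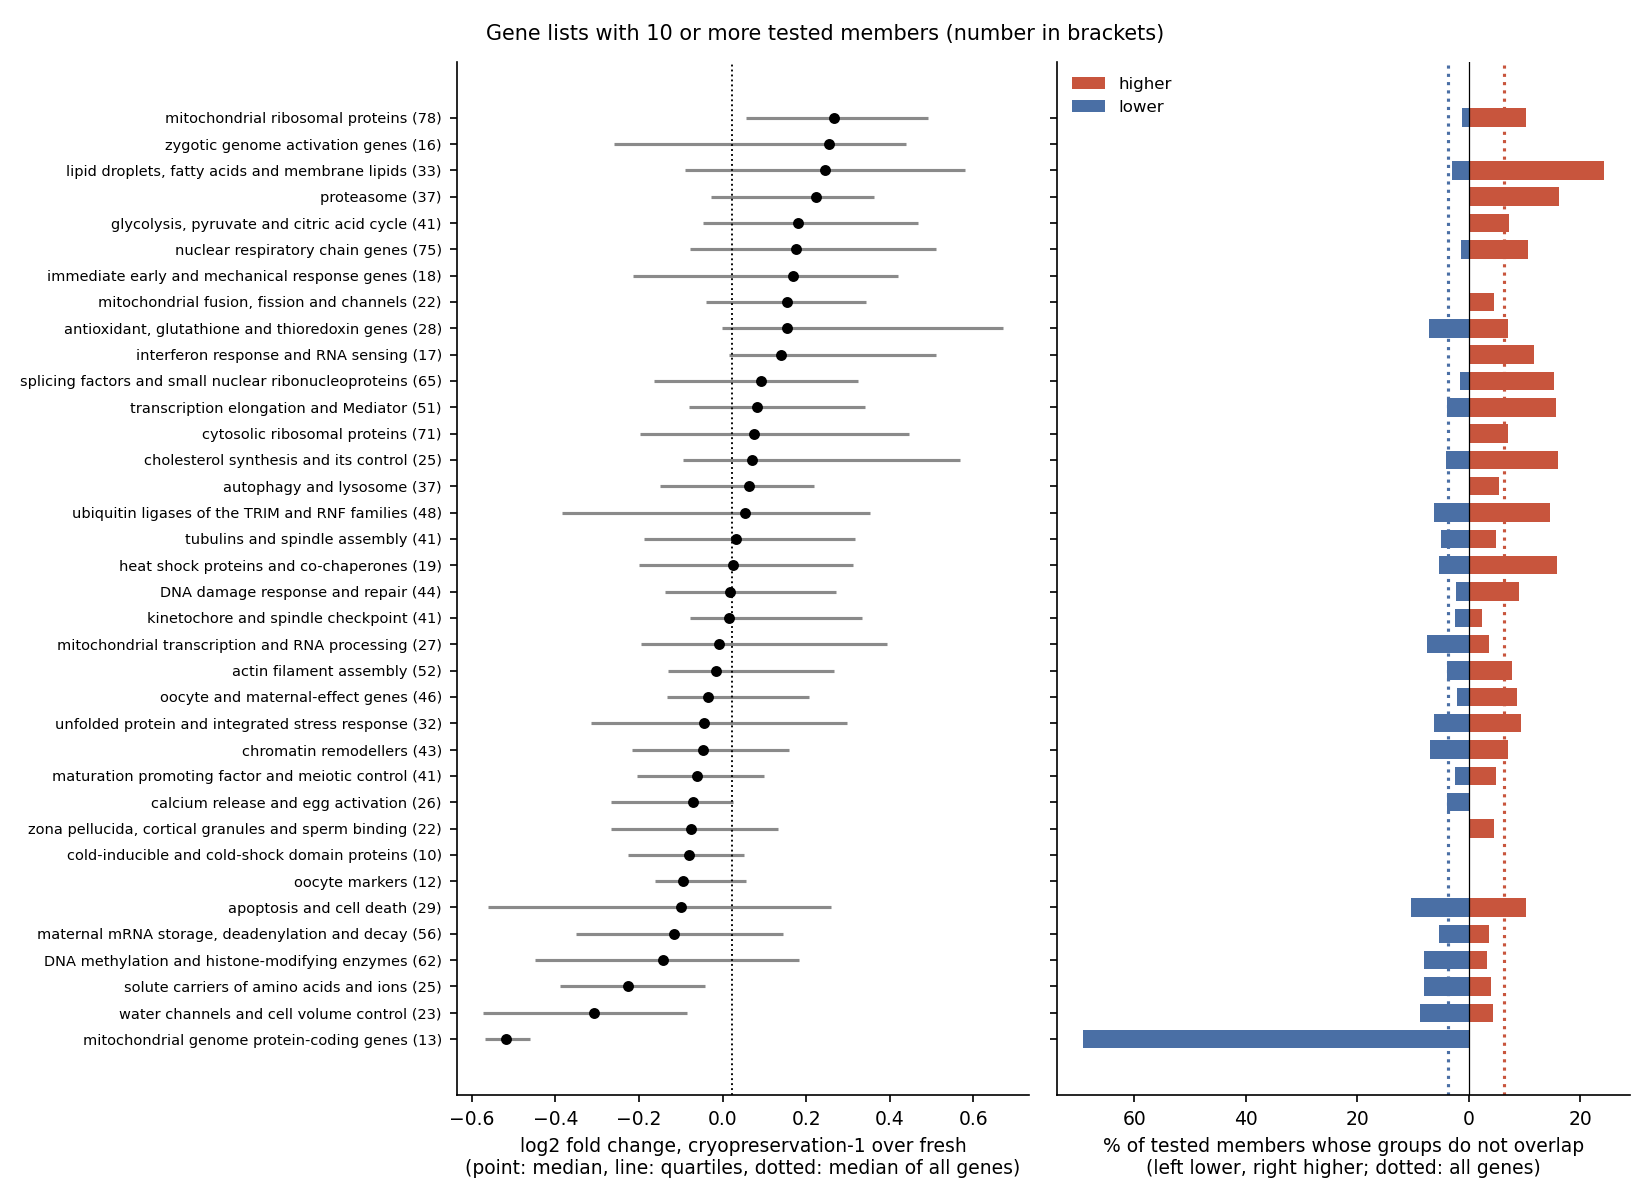
Left, median and quartiles of the log2 fold change of cryopreservation-1 over fresh for the gene lists reported here that have 10 or more tested members; right, the percentage of members whose groups do not overlap, higher to the right and lower to the left, with dotted lines at the values for all genes (6.37% and 3.72%). The mitochondrial genome stands apart at the bottom with a median of -0.52 and 9 of 13 members lower.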

How the data were processed

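The authors deposited 1 table with raw counts and FPKM values of 26358 genes in 9 libraries of poly(A) RNA, made by the dUTP method per the labels' protocols. Per the submitters' processing notes the tools were cutadapt 1.9, HISAT2 2.0.4 and StringTie 1.3.4d on GRCm38; the counting tool and its strand setting were not given in the sources used here. PCR copies were not told apart, and poly(A) selection recovers transcripts with short tails less well. Genes passing edgeR's filterByExpr (minimum count 10, minimum total 15) were tested on the deposited counts with edgeR 4.0.16 in R 4.3.3 (quasi-likelihood, TMM, Benjamini-Hochberg over 17545 genes), with all 9 libraries in 1 fit and the contrast of cryopreservation-1 with fresh. DESeq2 1.42.0 and limma 3.58.1 on log2(FPKM + 1) were alternatives. Intervals are at 95% for each gene, are not adjusted for the number of genes and cover the spread between these libraries. For a gene at 0 counts in a whole group, the floor is 3 counts over the 3 libraries of that group and covers counting error only. Counts of replicates differed beyond sampling noise in every pair (chi-square per degree of freedom 92.4 to 277).

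Same-numbered fresh and cryopreservation-1 libraries deviated together from their group means over 8091 genes (r = 0.272, 0.404 and 0.473), so a fit with the replicate number as a block was run as well; the labels do not say what the number marks. Named genes were taken first from genes at 5 CPM or more in the higher group whose groups do not overlap. Of these, the 12 with the smallest p and the 6 with the largest fold in each direction were named. The 5 with most counts among genes at 0 in 1 group and at least 10 counts in each library of the other were added. So were each list's member of smallest p in each direction among those without overlap, and a fixed set of stress, oocyte and mitochondrial genes. Provisional symbols were passed over except in the lists. The comparison, the lists and some of their members, such as Smarca5, Rac1, Rnf139, Trim59, Arpc3, Ctnnbl1, Snrnp70 and Supt5, were chosen with earlier results of these data known, so their counts are not independent evidence. A few results are not reported here.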

Additional observations from a re-analysis of the deposited data

How the results depend on the processing

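Under 19 alternatives the count of genes called by edgeR stayed at 0 except for 1 with the 6 libraries alone, 1 without cryopreservation-2 replicate 2 and 1 with the replicate block in the 6 libraries alone, in each case 9330102E08Rik; leaving out 1 library gave 0 to 1, and the replicate block in all 9 libraries gave 0. The block changed no other call. DESeq2 called 43. At an unadjusted p under 0.05, a mean of at least 5 CPM left 426 genes because fewer genes were tested, and leaving out 1 library gave 600 to 1261, the highest without fresh replicate 2. The block gave 664 in all 9 libraries and 1164 in the 6, which pairs same-numbered libraries. Genes bounded inside a 2-fold change numbered 9017 of 10896 by limma on log2(FPKM + 1) and 5341 on log2(FPKM + 0.1). They numbered 3355 without both replicates 3 of fresh and cryopreservation-1, and 3827 to 5792 when 1 library was left out. Genes whose groups do not overlap numbered 899 at a mean of at least 5 CPM, 6181 without both replicates 3 and 1766 to 4157 with 1 library left out, since fewer libraries overlap less.

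Near 0, the log2 fold changes of Ccnb1, Gdf9 and Hsf1 turned positive by limma on log2(FPKM + 1) and log2(FPKM + 0.1), at 0.0624 and 0.0625, 0.0374 and 0.0374, and 0.0073 and 0.0075. With 1 library left out, Ccnb1 lay between -0.17 and 0.11, Gdf9 between -0.18 and 0.19 and Rbm3 between -0.10 and 0.20. Without both replicates 3 Rbm3 was at -0.0228. The cause was not tested. No other named gene whose log2 fold change is given changed direction under these alternatives, and 25, Smarca5, Rac1 and Trmu among them, passed under DESeq2 only. With 3 libraries a group, transcripts under 1 CPM were rarely resolved.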

Other observations

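Ubiquitin ligases of the TRIM and RNF families, where Rnf139 and Trim59 were lower, also held higher members. Of 48 tested, 7 were higher and 3 lower without overlap, against 6.37% and 3.72% of all genes, and 0 were called. Rnf6, a RING ligase, stood at 37.8, 26.8 and 44.3 CPM in fresh and 79.1, 65.5 and 71.0 in cryopreservation-1 (log2 fold change 0.98, SE 0.28). Of 71 cytosolic ribosomal protein genes, 5 were higher and none lower without overlap, a share of higher genes near the 6.37% of all genes, with Rplp0 of the ribosomal stalk at 35.9, 41.6 and 33.8 against 46.9, 70.2 and 44.7 CPM; reads of this family can be shared with processed pseudogenes, and its median of 0.07 took both signs under the alternatives.

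Among 17 interferon response and RNA sensing genes, 13 had a positive log2 fold change (median 0.14). Mx1, an antiviral GTPase, had 25, 0 and 0 counts in fresh and 43, 81 and 67 in cryopreservation-1. Of 18 immediate early and mechanical response genes none had groups apart, against 10.1% of all genes. Egr1 stood at 37.1, 50.0 and 17.4 CPM in fresh and 60.1, 42.7 and 24.3 in cryopreservation-1, Fos at 2.11, 2.73 and 2.50 against 1.97, 3.16 and 3.82 CPM, and Jun had counts in 1 library of each group. In autophagy and lysosome genes Mcoln1, a lysosomal calcium channel, stood at 20.4, 20.6 and 15.7 against 37.1, 27.8 and 21.6 CPM. The early embryo genes Zscan4c, Zscan4d, Usp17lc, Duxf3 and Tdpoz1 had at most 71 counts in any of the 6 libraries, with 0 counts of 4 of them in fresh replicate 3. The zygotic genome activation list, 16 genes, had none with groups apart, against 10.1% of all genes.

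Fresh libraries differed among themselves more than cryopreservation-1 libraries did, which was not tested. Over 8091 genes the median SD of log2 CPM between libraries was 0.323 in fresh and 0.264 in cryopreservation-1, and Pearson's r between libraries, across genes that are not independent replicates, was 0.951 to 0.956 within fresh, 0.963 to 0.981 within cryopreservation-1 and 0.946 to 0.972 between them.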
